A study of Homo sapiens with 6 samples.

Results

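Genes that build the mitotic spindle, attach chromosomes to it and split the dividing cell were examined in SUM159 cells overexpressing POGK. A fixed set of 60 genes was taken by symbol from a deposited table of 18398 genes, and each of the 60 was found in it under that symbol. They comprised 9 mitotic entry kinases, phosphatases and cyclins, 4 subunits of the chromosomal passenger complex, 10 genes of the spindle checkpoint and anaphase control, 6 of the outer kinetochore, 8 centromere proteins, 8 spindle kinesins and microtubule-binding proteins, 6 of the midzone and cytokinesis, 7 of chromosome condensation and the chromosome surface, and 2 transcription factors. The rule used their symbols and no measured value, although the genes were chosen with earlier results of these data known.

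SUM159 is a widely used cell line from a human triple-negative breast cancer. The POGK group held 3 RNA sequencing libraries from stable SUM159 cells that overexpress POGK, a protein with a KRAB domain that derives from a pogo transposable element. The control group held 3 libraries from SUM159 cells with the empty pLVX lentiviral vector, the backbone that both groups share. All cells were grown in Ham's F12 medium with serum, insulin and hydrocortisone. The series title ties POGK to ribosome biogenesis and to tumour-suppressive activity. The labels leave unsaid whether the stable cells are 1 clone or a pool, and whether each replicate was its own culture. The p-values therefore reflect the scatter among these libraries alone, part or all of which may be technical.

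Total counts ran from 27645789 to 33689230 per library. POGK itself had 742, 781 and 780.3 CPM in POGK cells, against 62.6, 77.3 and 66.9 CPM in control cells. CPM are read counts scaled to a common library size, here with TMM factors, which correct for differences in RNA composition. The POGK gene was 11.1-fold higher (adjusted p = 3.56e-07, edgeR's quasi-likelihood test with Benjamini-Hochberg adjustment over 15889 genes). Of the mesenchymal markers that define the line, 6 of 6 were present, at 49.2 to 3344 CPM in POGK cells and 61.7 to 5960 CPM in control cells. They were called in both directions: VIM, FN1, ZEB1 and CD44 were lower in POGK cells, with log2 fold changes of -0.83, -1.67, -0.33 and -0.26, and AXL and CAV1 were higher, with 0.32 and 0.81. With library size alone, 2 of the 6 were called lower. The epithelial markers EPCAM, ESRP1, ESRP2 and CLDN4 were below 1 CPM in both groups, as was the oestrogen receptor gene ESR1. CDH1, GRHL2 and the receptor gene PGR were not among the deposited genes. The receptor gene ERBB2 averaged 85.6 CPM in POGK cells and 72.9 CPM in control cells. It was called higher (log2 0.23, adjusted p = 0.0246, edgeR), a call lost without POGK replicate 1 or 3. Of the 2 immune markers in the table, PTPRC averaged 1.66 CPM in POGK cells and 0.530 CPM in control cells and was called higher. CD14 averaged 0.552 CPM in POGK cells and 1.06 CPM in control cells and was called lower. The CD14 call was lost with library size alone, and without POGK replicate 1 or 2 or control replicate 2 or 3. Of the endothelial markers, PECAM1 averaged 3.97 CPM in POGK cells and 5.18 CPM in control cells and was called lower (log2 -0.39). The PECAM1 call was lost with library size alone, no filter, DESeq2 or the replicate number as a block. It was also lost without any 1 of the POGK libraries or without control replicate 3. TIE1 was below 1 CPM in both groups. The part of other cell types in the results was not tested.

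Cells enter mitosis when CDK1 bound to a B-type cyclin is activated by CDC25 phosphatases, with Polo-like and Aurora kinases driving spindle assembly. Kinetochores built on the centromere then bind microtubules, and unattached ones keep the spindle checkpoint on until the anaphase-promoting complex is released to destroy securin and cyclin B. Many of these genes are transcribed late in the cell cycle through a shared promoter element, the cell cycle genes homology region (CHR), often beside CCAAT boxes bound by NF-Y. The DREAM complex represses through the CHR in resting cells, and the activators B-MYB (MYBL2) and FOXM1 act there in G2, so these mRNAs are widely read as markers of proliferation.

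Promoter sequences are shown because a shared element is the textbook link between these genes. RefSeq promoter windows (build GRCh38.p14), each running from 250 bases before to 50 bases after an annotated gene start, were matched by symbol for 49 of the 60 genes. No entry was used for AURKA, BIRC5, BUB3, CENPH, CENPM, FOXM1, KNL1, RACGAP1, TPX2, TTK or UBE2C. The CHR was searched only as TTTGAA and in the form TTCGAA, and the CCAAT box as CCAAT. An E2F-like element was searched as TTCCCGC, with TTCGCGC as the second, TTGCCGC as the third and TTGGCGC as the fourth form. Both strands were searched, and no form holds the letters of another motif. A CHR was found in a window of 36 of the 49 mitotic genes (73.5%), against 19.5% of the 27305 genes in the promoter table and 15.9% of the 11070 of them that were tested for expression. A CCAAT box was found for 38 of 49 (77.6%), against 39.7% of all genes and 43.6% of the tested ones. Both stood in the windows of 29 of 49 (59.2%), against 9.02% of all genes and 8.74% of the tested ones. The E2F-like element was found for 17 of 49 (34.7%), against 15.3% of all genes and 24.3% of the tested ones. A match is a stretch of letters and no evidence of binding.

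The sequences below are those of PLK1 and CDC20, which hold both a CHR and a CCAAT box and whose mRNAs rose, and of TOP2A, which also holds both and whose mRNA was not called. These 3 were picked after their values were seen. CENPI and NCAPH are shown as the 2 genes with a window that had the largest positive change, and CDC25B and PTTG1 as the 2 with the largest negative change. Capitals mark CHR, CCAAT and E2F-like letters on either strand, so that ATTGG is CCAAT and TTCAAA is TTTGAA on the opposite strand. Each is written 5′ to 3′ on the strand of its gene. The windows are chr16:23678639-23678938 on the plus strand for PLK1, chr1:43358731-43359030 on the plus strand for CDC20, chr17:40417847-40418146 on the minus strand for TOP2A, chrX:101100808-101101107 on the plus strand for CENPI, chr2:96335516-96335815 on the plus strand for NCAPH, chr20:3786701-3787000 on the plus strand for CDC25B and chr5:160421605-160421904 on the plus strand for PTTG1.
PLK1: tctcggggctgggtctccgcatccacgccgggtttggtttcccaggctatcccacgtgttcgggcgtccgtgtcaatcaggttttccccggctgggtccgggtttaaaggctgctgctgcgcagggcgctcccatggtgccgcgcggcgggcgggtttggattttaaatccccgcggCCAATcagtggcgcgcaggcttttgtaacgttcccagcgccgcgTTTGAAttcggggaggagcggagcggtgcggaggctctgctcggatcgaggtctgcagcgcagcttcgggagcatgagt
CDC20: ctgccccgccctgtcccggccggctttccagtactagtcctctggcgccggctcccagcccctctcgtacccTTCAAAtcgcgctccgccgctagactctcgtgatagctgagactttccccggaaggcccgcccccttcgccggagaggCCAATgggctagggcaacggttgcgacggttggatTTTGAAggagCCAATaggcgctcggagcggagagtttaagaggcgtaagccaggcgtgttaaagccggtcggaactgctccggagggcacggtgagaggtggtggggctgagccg
TOP2A: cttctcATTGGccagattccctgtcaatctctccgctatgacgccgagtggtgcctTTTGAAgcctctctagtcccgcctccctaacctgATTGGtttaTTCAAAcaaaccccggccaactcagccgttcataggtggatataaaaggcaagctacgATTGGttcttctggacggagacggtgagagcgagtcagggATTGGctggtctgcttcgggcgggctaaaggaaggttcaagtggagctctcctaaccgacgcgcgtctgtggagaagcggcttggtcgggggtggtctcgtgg
CENPI: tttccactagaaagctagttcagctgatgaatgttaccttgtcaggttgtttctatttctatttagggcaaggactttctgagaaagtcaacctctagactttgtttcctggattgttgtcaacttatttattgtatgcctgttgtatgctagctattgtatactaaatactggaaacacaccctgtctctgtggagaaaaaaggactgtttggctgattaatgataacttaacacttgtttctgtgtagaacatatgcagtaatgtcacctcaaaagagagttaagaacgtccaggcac
NCAPH: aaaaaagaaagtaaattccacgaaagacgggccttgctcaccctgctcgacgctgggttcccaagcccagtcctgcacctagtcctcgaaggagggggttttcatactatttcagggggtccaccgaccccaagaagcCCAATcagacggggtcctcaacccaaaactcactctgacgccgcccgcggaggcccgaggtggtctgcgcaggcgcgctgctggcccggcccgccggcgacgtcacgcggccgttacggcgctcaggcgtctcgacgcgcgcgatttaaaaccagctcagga
CDC25B: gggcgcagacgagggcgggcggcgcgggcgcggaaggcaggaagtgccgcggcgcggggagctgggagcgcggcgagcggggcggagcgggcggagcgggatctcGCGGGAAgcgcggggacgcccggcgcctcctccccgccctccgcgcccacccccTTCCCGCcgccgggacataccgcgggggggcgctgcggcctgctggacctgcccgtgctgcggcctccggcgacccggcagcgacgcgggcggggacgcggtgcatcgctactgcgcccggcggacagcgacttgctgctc
PTTG1: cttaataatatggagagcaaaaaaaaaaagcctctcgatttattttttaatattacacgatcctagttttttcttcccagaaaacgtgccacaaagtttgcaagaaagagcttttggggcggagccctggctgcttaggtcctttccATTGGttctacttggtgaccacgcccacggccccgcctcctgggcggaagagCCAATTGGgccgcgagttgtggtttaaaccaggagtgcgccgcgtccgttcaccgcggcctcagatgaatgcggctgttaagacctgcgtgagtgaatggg

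Positions of a motif's first base are given relative to the annotated start. In PLK1 the CCAAT box began at -73 and the CHR at -29. CDC20 held CCAAT boxes at -100 and -55, and CHR letters at -65 and, on the opposite strand, at -178. The window of TOP2A held CCAAT boxes on the opposite strand at -244, -160, -93 and -53. Its CHR letters were at -194 on the same strand and at -151 on the opposite strand. NCAPH held 1 CCAAT box, at -112. No letters of the 3 motifs were found in the CENPI window, which lies inside the GENCODE gene record, whose start is at 101098188. The first of 4 CDC25B windows held E2F-like letters at -91 and, on the opposite strand, at -145. It held no CHR or CCAAT letters, but both were found in other windows of CDC25B, which counts among the genes with each motif. The first of 2 PTTG1 windows held CCAAT boxes at -51 and, on the opposite strand, at -103 and -48. Those at -51 and -48 overlapped.

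Mitotic genes were mostly higher in POGK cells. Of the 60, all of which passed the filter on low counts, 51 were called higher and 2 lower at an adjusted p below 0.05, and 7 were not called. Among all 15889 genes tested, 32.7% were called higher and 33.3% lower. The 60 genes had a median log2 fold change of 0.67, with quartiles of 0.42 and 0.96, beside 0.0025 over all genes, whose quartiles were -0.54 and 0.51. Of the genes called higher, 14 were at least 2-fold higher, and neither CDC25B nor PTTG1, the genes called lower, was 2-fold lower. Among all genes tested, 9.58% were called at least 2-fold higher and 12.7% at least 2-fold lower. The extremes were 1.79 for CENPI and -0.36 for CDC25B. With library size alone in place of TMM, the median of all genes was 0.19, 41.4% of them were called higher and 24.7% lower, and the 60 genes gave 57 higher and 0 lower. The fold changes given here are relative to the TMM scaling. In these bulk libraries, a larger share of cells in G2 or mitosis and more of each mRNA per cell cannot be told apart.

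**Figure D1:**
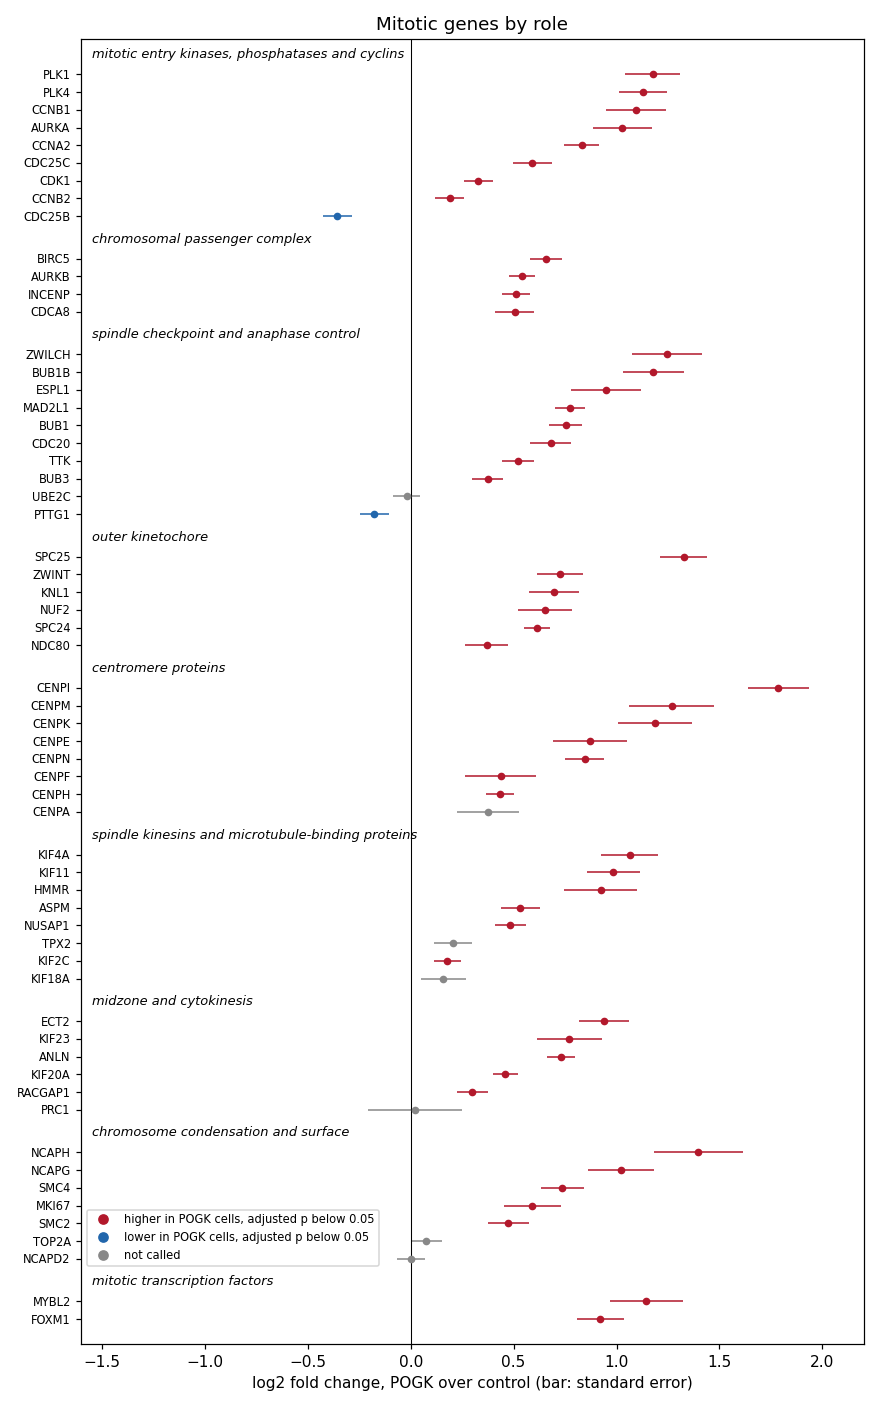
Log2 fold change of POGK over control cells for the 60 mitotic genes, grouped by role, with bars of 1 standard error. Most points lie to the right of 0, up to 1.79 for CENPI, and CDC25B and PTTG1 are the 2 called lower.

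The groups seldom overlapped. For 53 of the 60 genes every POGK library lay above every control library, which was so for 36.8% of all genes tested. For 2 genes, CDC25B and PTTG1, every POGK library lay below every control library, which was so for another 36.8% of all genes. Summed over the 60 genes, the POGK libraries held 10905, 10895 and 10885 CPM, against 7092, 8491 and 7565 CPM in control cells. As a share of raw counts, the genes took 1.16%, 1.17% and 1.17% of the POGK libraries, against 0.627%, 0.814% and 0.728% of the control libraries. The POGK libraries were nearly level, and the control libraries were not.

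The control libraries differed among themselves in a shared way. Control replicate 2 was the highest control library for 50 of the 60 genes, and control replicate 1 was the lowest for 43. These counts were not made over all genes tested. Most DNA replication genes, such as MCM2 and PCNA, had the same highest and lowest control library, and some, such as CDT1, did not. The median coefficient of variation of the 60 genes was 2.09% in POGK cells and 14.9% in control cells, beside 4.44% and 13.5% over all genes tested. The relative spread was wider in control cells for 57 of the 60, a count that was also not made over all genes tested. The test fitted 1 dispersion per gene to both groups. Without control replicate 2, 54 of the 60 genes were called higher, and without control replicate 3, 47 were. Of all genes, 34.9% and 30.1% were called higher in these fits.

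**Figure D2:**
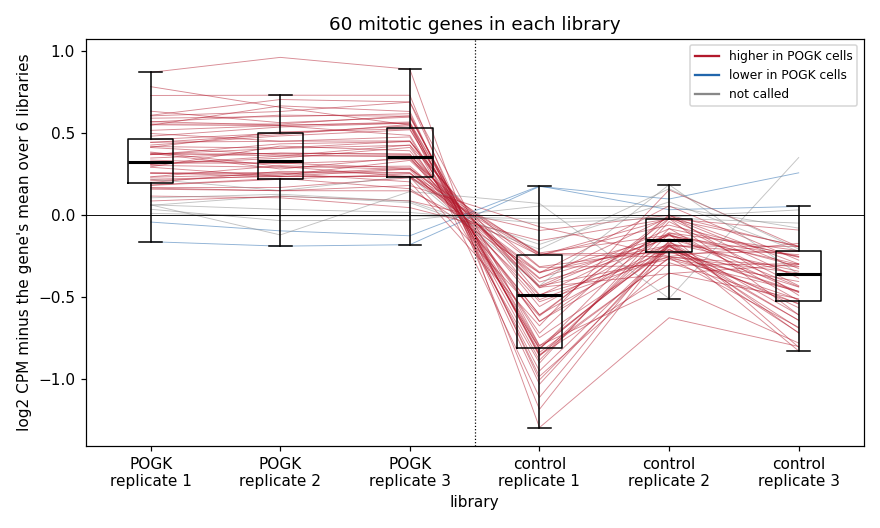
Level of each of the 60 mitotic genes in each library, as log2 of its CPM minus the gene's mean over the 6 libraries. Lines join the values of 1 gene, boxes span the quartiles with the median in black, and whiskers reach the farthest value within 1.5 box lengths. The POGK libraries have medians of 0.33 to 0.35, and the control libraries have medians of -0.49, -0.15 and -0.36, with control replicate 2 nearest to the POGK libraries.

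Among the kinases, phosphatases and cyclins of mitotic entry, 8 of 9 were called higher and 1 lower, with a median log2 fold change of 0.83. PLK1, the Polo-like kinase needed for centrosome maturation and spindle assembly (hg38 chromosome 16, 23677656 to 23690367, plus strand), had 208, 198 and 203 CPM in POGK cells, against 74.3, 112 and 83.4 CPM in control cells. The groups were far apart, and the change was 2.26-fold (log2 1.18, SE 0.13, adjusted p = 9.5e-05, edgeR). CCNB1, the cyclin that activates CDK1 at mitotic entry (chromosome 5, 69167135 to 69178245, plus strand), had 443, 437 and 440.4 CPM in POGK cells, against 170.2, 263 and 185 CPM in control cells. Its 2.13-fold rise (log2 1.09, SE 0.15, adjusted p = 0.000217, edgeR) was among the larger ones, although control replicate 2 stood above the other control libraries. PLK4, which licenses centriole duplication, had 63.8, 63.8 and 66.1 CPM in POGK cells and 24.0, 34.0 and 30.4 CPM in control cells (log2 1.13, SE 0.12, adjusted p = 5.62e-05, edgeR). AURKA, the Aurora kinase of centrosomes and spindle poles, had 175, 174 and 167 CPM in POGK cells and 67.8, 107 and 78.2 CPM in control cells (log2 1.03, SE 0.14, adjusted p = 0.000282, edgeR). These 4 genes passed 2-fold.

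The rest of this group changed less. CCNA2, the cyclin of S phase and early mitosis, averaged 216 ± 6.36 CPM in POGK cells and 121 ± 12.4 CPM in control cells (SD, n = 3 each), a log2 fold change of 0.83. CDC25C, one of the phosphatases that switch CDK1 on, was at 26.5, 26.3 and 26.4 CPM in POGK cells and 16.5, 19.4 and 16.6 CPM in control cells (log2 0.59, adjusted p = 0.000575, edgeR). CDK1, the kinase at the centre of mitotic entry, had 243, 240.0 and 245 CPM in POGK cells, against 206, 182 and 192 CPM in control cells. Its rise was 1.26-fold (log2 0.33, SE 0.07, adjusted p = 0.00293, edgeR), smaller than that of its partner CCNB1, and it was not called once a trend in GC content per library had been removed (adjusted p = 0.0691). CCNB2, the second B-type cyclin, had 160.2, 163 and 160.3 CPM in POGK cells and 141, 151 and 132 CPM in control cells. Its call (log2 0.19, SE 0.07, adjusted p = 0.0382, edgeR) was lost under 9 of 15 alternative settings. CDC25B went the other way, with 336, 330.1 and 332 CPM in POGK cells, below the 425, 403 and 450.2 CPM in control cells. This phosphatase, which acts early at centrosomes to start CDK1 activation, fell by 0.36 on the log2 scale (SE 0.07, adjusted p = 0.00203, edgeR), and it was not called with library size alone (adjusted p = 0.0604).

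The chromosomal passenger complex corrects faulty microtubule attachments and guides cytokinesis, and its 4 subunits rose by similar amounts. AURKB, its kinase, had 79.0, 76.0 and 78.4 CPM in POGK cells, against 54.6, 54.1 and 51.8 CPM in control cells. The control libraries lay close together for this gene, and its log2 fold change was 0.54 (SE 0.06, adjusted p = 0.000108, edgeR). BIRC5, which encodes survivin, had 228, 224 and 229 CPM in POGK cells and 145, 156 and 131 CPM in control cells (log2 0.66). INCENP, the scaffold, and CDCA8, which encodes borealin, changed by 0.51 and 0.50 on the log2 scale. The 4 fold changes thus lay within 0.50 to 0.66, each with a standard error of 0.06 to 0.09.

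In the spindle checkpoint and anaphase control, 8 of 10 genes were called higher and 1 lower, with a median log2 fold change of 0.72. ZWILCH, a subunit of the RZZ complex that brings checkpoint proteins and dynein to kinetochores (chromosome 15, 66504959 to 66550130, plus strand), had 102, 104 and 108 CPM in POGK cells, against 33.4, 58.2 and 40.8 CPM in control cells. It rose 2.37-fold (log2 1.24, SE 0.17, adjusted p = 0.000275, edgeR), the most in this group. BUB1B, which encodes the checkpoint inhibitor BUBR1, had 162, 163 and 165 CPM in POGK cells and 54.2, 87.7 and 73.8 CPM in control cells, a 2.26-fold rise. The kinase genes BUB1 and TTK rose by 0.75 and 0.52 on the log2 scale. MAD2L1, whose product MAD2 sequesters CDC20, had 105, 103 and 108 CPM in POGK cells and 59.6, 66.7 and 58.3 CPM in control cells (log2 0.78, SE 0.07, adjusted p = 3.4e-05, edgeR). BUB3, the scaffold that docks BUB1 and BUBR1, rose less, by 0.37.

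The effectors that the checkpoint holds back were divided. CDC20, the activator of the anaphase-promoting complex, had 245, 254 and 254 CPM in POGK cells, against 145, 182 and 143 CPM in control cells (log2 0.68, SE 0.10, adjusted p = 0.00033, edgeR). ESPL1, which encodes separase, the protease that cuts cohesin, had 43.6, 45.1 and 47.0 CPM in POGK cells and 17.4, 30.3 and 22.3 CPM in control cells (log2 0.95, SE 0.17, adjusted p = 0.00108, edgeR). Its inhibitor PTTG1, securin, had 186, 179 and 176 CPM in POGK cells, below the 217, 196 and 199 CPM in control cells. The fall of PTTG1 was 0.18 on the log2 scale (SE 0.07, adjusted p = 0.048, edgeR), close to the threshold, and 12 of 15 alternatives did not call it. UBE2C, the ubiquitin-conjugating enzyme that works with the complex, was at 82.9, 79.0 and 79.2 CPM in POGK cells and 84.1, 83.8 and 76.6 CPM in control cells. The UBE2C groups overlapped, with a log2 fold change of -0.02 (SE 0.07, adjusted p = 0.809, edgeR). ESPL1 and PTTG1, which encode a protease and its inhibitor, were thus called in opposite directions, although PTTG1 was at 0.02 on the log2 scale with library size alone.

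All 6 outer kinetochore genes were called higher. The NDC80 complex, which grips the microtubule, is made of NDC80, NUF2, SPC24 and SPC25. SPC25 (chromosome 2, 168834132 to 168913371, minus strand) had 30.4, 32.5 and 32.1 CPM in POGK cells, against 11.5, 14.8 and 11.6 CPM in control cells, a 2.51-fold rise (log2 1.33, SE 0.11, adjusted p = 2.33e-05, edgeR). Its partner SPC24 had 73.2, 73.2 and 71.7 CPM in POGK cells and 47.1, 47.5 and 47.8 CPM in control cells (log2 0.61, SE 0.06, adjusted p = 4.86e-05, edgeR). NUF2 rose by 0.65 and NDC80 by 0.37 on the log2 scale. NDC80 itself had 72.5, 74.5 and 71.3 CPM in POGK cells and 49.9, 66.3 and 52.7 CPM in control cells, and it was not called by edgeR without control replicate 3 (adjusted p = 0.0571). KNL1, the checkpoint platform, and ZWINT, which binds KNL1, rose by 0.70 and 0.73.

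Dividing by exon length allows subunits to be set roughly side by side. The length is that of all annotated exons of a gene merged over its transcripts, which can exceed the mRNA that the cells express. Levels and ranges per kilobase therefore depend on the annotated transcripts as well. In CPM per kilobase of exon, the 4 subunits of the NDC80 complex ran in POGK cells from 17.3 for SPC25 to 25.6 for SPC24, a 1.48-fold range. In control cells they ran from 6.90 for SPC25 to 16.7 for SPC24, a 2.42-fold range. The subunit with the lowest level thus changed most. These are mRNA levels and no measure of protein stoichiometry, and no test was made of the ranges.

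Of the 8 centromere proteins, 7 were called higher, with a median log2 fold change of 0.86, and this group held the largest change among the 60 genes. CENPI, a subunit of the constitutive centromere network on which the kinetochore is built (chromosome X, 101098188 to 101166126, plus strand), had 59.5, 63.4 and 60.3 CPM in POGK cells, against 13.2, 21.1 and 18.7 CPM in control cells. It rose 3.45-fold (log2 1.79, SE 0.15, adjusted p = 1.9e-05, edgeR). CENPK and CENPH, which belong to the same subcomplex as CENPI, rose unequally. CENPK had 37.5, 40.7 and 39.7 CPM in POGK cells and 12.5, 22.7 and 16.4 CPM in control cells (log2 1.19), while CENPH rose by 0.43. CENPM, also of this subcomplex, was the lowest expressed of the 8, at 15.3, 14.0 and 13.0 CPM in POGK cells and 4.11, 7.95 and 5.39 CPM in control cells (log2 1.27, SE 0.21, adjusted p = 0.000655, edgeR). CENPN, which reads the CENP-A nucleosome, rose by 0.84.

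For the remaining centromere genes, as for those above, control replicate 2 stood highest among the control libraries. CENPE, a kinesin that carries chromosomes to the spindle equator, had 138, 138 and 141 CPM in POGK cells and 54.1, 98.5 and 75.1 CPM in control cells (log2 0.87, SE 0.18, adjusted p = 0.00261, edgeR). CENPF, a large protein of the late-assembling kinetochore, had 278, 278 and 268 CPM in POGK cells, against 146, 259 and 204 CPM in control cells. The highest control library thus reached almost the level of the lowest POGK library, and the call of CENPF (log2 0.44, SE 0.17, adjusted p = 0.0494, edgeR) was lost without any 1 of the POGK libraries or without control replicate 1 or 3. CENPA, the histone H3 variant that marks the centromere, had 34.0, 32.4 and 34.5 CPM in POGK cells and 21.7, 33.3 and 22.8 CPM in control cells. CENPA was not called (log2 0.38, SE 0.15, adjusted p = 0.0533, edgeR), and without control replicate 2 its adjusted p was 0.000124.

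Spindle kinesins and microtubule-binding proteins were more mixed, with 6 of 8 called higher and a median log2 fold change of 0.51. KIF11, the motor that pushes spindle poles apart, had 199, 205 and 211 CPM in POGK cells, against 81.0, 121 and 109 CPM in control cells (log2 0.98, SE 0.13, adjusted p = 0.000199, edgeR). KIF4A, a chromosome-arm kinesin that also shapes the midzone, had 131, 134 and 136 CPM in POGK cells and 52.5, 80.0 and 58.5 CPM in control cells (log2 1.06, SE 0.14, adjusted p = 0.000177, edgeR). HMMR, a spindle assembly factor and hyaluronan receptor, rose by 0.92, ASPM, a spindle pole protein, by 0.53, and NUSAP1, a microtubule bundler, by 0.48. The NUSAP1 values are uncertain, since 81.4% of its exon bases are shared with a read-through gene on the same strand. KIF2C, which depolymerises microtubules at centromeres, had 153, 152 and 146 CPM in POGK cells and 127, 139 and 133 CPM in control cells. Its small rise (log2 0.18, SE 0.07, adjusted p = 0.0389, edgeR) was lost under 7 of 15 alternatives, among them each setting without 1 of the POGK libraries or without control replicate 3.

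TPX2 and KIF18A were not called. TPX2, which activates AURKA and nucleates microtubules, had 431, 437 and 425 CPM in POGK cells, against 354, 424 and 344 CPM in control cells. Every POGK library was above every control library, by a narrow margin over control replicate 2, and the adjusted p was 0.0721 (log2 0.21, SE 0.09, edgeR). KIF18A, a kinesin that limits chromosome oscillation, had 35.9, 37.4 and 36.3 CPM in POGK cells and 29.8, 38.5 and 29.9 CPM in control cells (log2 0.16, SE 0.11, adjusted p = 0.227, edgeR). Without control replicate 2, both were called higher, with adjusted p of 0.00231 for TPX2 and 0.00407 for KIF18A.

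In the midzone and cytokinesis group 5 of 6 genes were called higher. ECT2, the exchange factor that activates RhoA at the division plane, had 165, 172 and 176 CPM in POGK cells, against 73.1, 106 and 88.5 CPM in control cells (log2 0.94, SE 0.12, adjusted p = 0.000174, edgeR). ANLN, or anillin, which scaffolds the contractile ring, had 427, 436 and 433 CPM in POGK cells and 247, 262 and 272 CPM in control cells (log2 0.73, SE 0.07, adjusted p = 3.62e-05, edgeR). The centralspindlin complex pairs the kinesin KIF23 with RACGAP1, and they rose by 0.77 and 0.30. KIF20A, a kinesin that moves the passenger complex to the midzone, had 262, 265 and 265 CPM in POGK cells and 191, 191 and 193 CPM in control cells, with close replicates in both groups (log2 0.46, SE 0.06, adjusted p = 0.000211, edgeR).

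PRC1, the bundler of antiparallel midzone microtubules, stood apart by its level. It had 2.04, 1.80 and 2.16 CPM in POGK cells and 2.05, 1.37 and 2.49 CPM in control cells, and its lowest count in a library was 43, where the next lowest gene, CENPM, had 102. The groups overlapped (log2 0.02, SE 0.23, adjusted p = 0.942, edgeR). In GENCODE release 44, PRC1 (chromosome 15, 90966040 to 90995629, minus strand) shares 3181 of its 5523 exon bases with ENSG00000284946 (90966190 to 91022566) on the same strand. That gene, listed as AC068831.6, had 13.6 ± 1.55 CPM in POGK cells and 12.7 ± 3.67 CPM in control cells (SD, n = 3 each; log2 0.10, adjusted p = 0.662, edgeR). Reads shared by overlapping genes can be dropped or divided in counting, so the PRC1 values are uncertain. The part of this overlap in its low level was not tested.

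The genes of chromosome condensation and the chromosome surface differed widely within a complex. Condensin I folds mitotic chromosomes and consists of SMC2, SMC4, NCAPD2, NCAPG and NCAPH. NCAPH, the kleisin that closes its ring (chromosome 2, 96335766 to 96377091, plus strand), had 90.4, 90.5 and 90.4 CPM in POGK cells, against 23.9, 48.1 and 30.7 CPM in control cells. It rose 2.63-fold (log2 1.40, SE 0.21, adjusted p = 0.0006, edgeR), with POGK libraries that were almost equal and control libraries that were spread 2.01-fold. NCAPG, one of its HEAT-repeat subunits, had 139, 145 and 147 CPM in POGK cells and 51.5, 87.2 and 73.5 CPM in control cells (log2 1.02, SE 0.16, adjusted p = 0.000575, edgeR). The ATPase subunits SMC4 and SMC2 rose by 0.74 and 0.47. NCAPD2, the other HEAT-repeat subunit (chromosome 12, 6493356 to 6531955, plus strand), had 454, 449.6 and 449.6 CPM in POGK cells and 444, 447 and 461 CPM in control cells. The NCAPD2 groups overlapped and its log2 fold change was 0.0011 (SE 0.07, adjusted p = 0.99, edgeR).

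Per kilobase of exon, NCAPD2 was the highest subunit of condensin I, at 69.7 CPM per kilobase in both groups, and NCAPH the lowest, at 13.8 in POGK cells and 5.23 in control cells. The ratio of highest to lowest was 5.05 in POGK cells and 13.3 in control cells. In the chromosomal passenger complex the same ratio was 2.87 in POGK cells and 2.60 in control cells. So the levels of subunits lay closer together in POGK cells for condensin I and the NDC80 complex, and slightly further apart for the passenger complex.

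TOP2A, the topoisomerase that untangles sister chromatids (chromosome 17, 40388525 to 40417896, minus strand), was the most abundant of the 60 genes. It had 1194, 1171 and 1156 CPM in POGK cells, against 1105, 1129 and 1105 CPM in control cells. The groups did not overlap, but the difference of 1.05-fold was small and not called (log2 0.08, SE 0.07, adjusted p = 0.379, edgeR). MKI67, which coats mitotic chromosomes and encodes the proliferation marker Ki-67, had 587, 553 and 529 CPM in POGK cells and 293, 449 and 366 CPM in control cells. It rose by 0.59 (SE 0.14, adjusted p = 0.00475, edgeR). These textbook markers of proliferating cells thus gave unequal changes, from 0.08 for TOP2A to 1.18 for PLK1.

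Both transcription factors in the set rose. MYBL2, or B-MYB, the activator that joins the MuvB core (chromosome 20, 43667019 to 43716495, plus strand), had 149, 153 and 153 CPM in POGK cells, against 55.3, 92.8 and 57.4 CPM in control cells (log2 1.15, SE 0.18, adjusted p = 0.000589, edgeR). FOXM1, which MuvB recruits in G2 (chromosome 12, 2857680 to 2877174, minus strand), had 199.6, 193 and 193 CPM in POGK cells and 90.1, 124 and 95.5 CPM in control cells (log2 0.92, SE 0.11, adjusted p = 0.00014, edgeR). Genes with and without a CHR window were set side by side. Of the 36 with a CHR, 30 were called higher, with a median log2 fold change of 0.67. Of the 13 whose windows held neither TTTGAA nor TTCGAA, 12 were called higher, with a median of 0.87. Other forms of the element were not searched, so these 13 cannot be read as genes that lack a CHR. They include CENPI, whose window lies inside its gene record. With a CCAAT box, 31 of 38 were called higher, and without one, 11 of 11. The search was made over fixed letters in fixed windows, and no test was made of these counts.

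**Figure D3:**
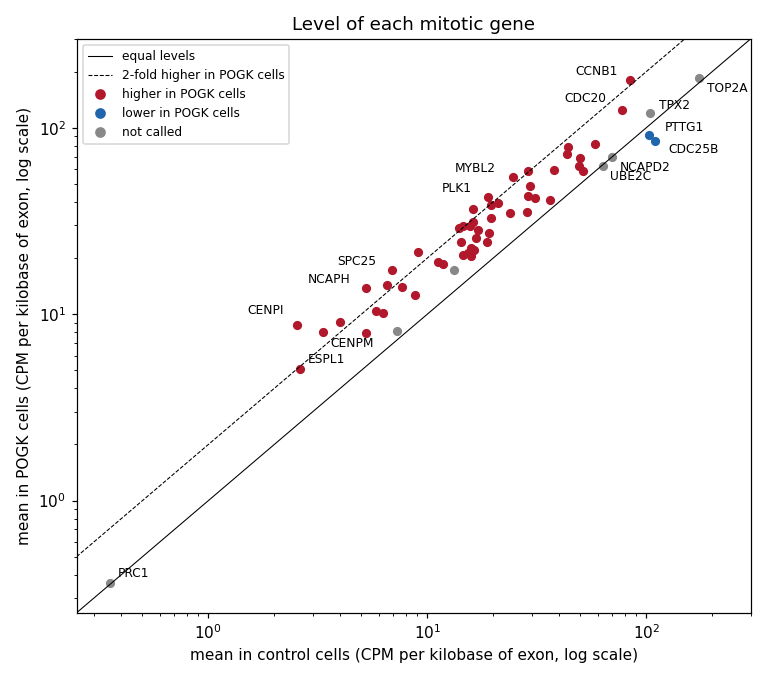
Mean level of the 60 genes in POGK cells against control cells, in CPM per kilobase of exon on log axes, with lines of equal levels and of a 2-fold rise. CENPI lies farthest above the line of equal levels, TOP2A, NCAPD2 and UBE2C lie on or near it, and PRC1 is the lowest point.

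Levels per kilobase spanned more than the changes did. TOP2A was the highest gene, at 184 CPM per kilobase in POGK cells and 175 in control cells. CCNB1 was at 181 in POGK cells and 84.7 in control cells, so that CCNB1 and TOP2A lay close together in POGK cells. TPX2, PTTG1 and CDC25B, which are among the 7 not called or the 2 called lower, were all above 80 in both groups. Leaving PRC1 aside, the lowest level in POGK cells was that of ESPL1, at 5.09, and the lowest in control cells that of CENPI, at 2.53.

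Some members carry a limit from their neighbours. The strand setting of the counting is not given in the sources used here, and 20 of the 60 genes have exon bases that overlap an exon on the opposite strand in GENCODE release 44. For 3 of them the overlap is above 20% of the exon length: 34.3% for PRC1, 33.7% for NCAPG, whose neighbour is LCORL, and 22.0% for SMC4, which faces TRIM59 and IFT80. If counting ignored the strand, reads of such partners could not be told apart. On the same strand, 5 of the 60 genes share exon bases with another gene, and for 2 of them the share with 1 neighbour is above 50%. NUSAP1 shares 2938 of 3608 exon bases (81.4%) with ENSG00000285920, which was not among the deposited genes. PRC1 shares 57.6% with ENSG00000284946, which was among them. The 60 genes had a median exon length of 4471 bases and a median GC content of 43.3%, beside 4910 bases and 47.6% over all genes tested. With a trend in exon length removed per library, 50 were called higher, and with a trend in GC content removed, 49 were. Of all genes tested, 32.8% and 32.2% were called higher under these settings.

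The authors' deposited table called 49 of the 60 genes higher and 1 lower at its adjusted p below 0.05. All 49 and the 1, CDC25B, were called in the same direction by edgeR. The 3 genes called by edgeR and not in the authors' deposited table were CCNB2 (0.0638), PTTG1 (0.101) and CENPF (0.0891), with the deposited adjusted p in brackets.

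Related lists of mitotic genes outside the 60 were read in the same fit, each set against the 32.7% called higher and 33.3% called lower of all genes. Of 28 other kinetochore subunits, 23 were called higher and none lower, with a median log2 fold change of 0.69. SKA3, which helps kinetochores track shrinking microtubules, rose by 1.57 and CENPS, which shares exon bases with a read-through gene, by 1.32. Of 15 genes of cohesin and its regulators, 11 were higher and 2 lower. The acetyltransferase ESCO2, which locks cohesin on sister chromatids, rose by 2.28 and the ring subunit SMC1A by 1.22, while the loader subunits NIPBL and MAU2 fell by 0.37 and 0.35. The 3 condensin II subunits were all called higher, with NCAPH2 at 0.98 and NCAPD3 at 0.73.

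The anaphase-promoting complex, whose activator CDC20 rose, was less uniform. Of 16 genes for its subunits and close partners, 9 were called higher and 1 lower, with a median of 0.33. ANAPC7 rose by 1.18 and CDC27 by 0.96, and ANAPC16 fell by 0.80. Of 30 other spindle and midbody genes, 20 were higher and 4 lower, with KIF20B at 1.29 and CENPJ, a centriole protein, at 1.10, against PLK3 at -1.06 and NUMA1, which anchors dynein at spindle poles, at -0.64. Of 14 regulators of mitotic entry and exit, 9 were higher and 2 lower. CDC25A, the third member of the CDC25 family, rose by 2.31 and PKMYT1, a kinase that inhibits CDK1, by 1.31, while the phosphatase genes PPP2R2A and PPP1CC fell by 0.36 and 0.33. The 3 CDC25 phosphatases thus took values of 2.31, -0.36 and 0.59 for CDC25A, CDC25B and CDC25C.

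Of 11 subunits of DREAM and MuvB, 7 were higher and 3 lower, with a median of 0.39. RBL1, the pocket protein p107, rose by 1.54, and RBL2, the pocket protein p130, fell by 0.42. Their partners of the DP family were also split, with TFDP1 rising by 1.22 and TFDP2 falling by 0.65. DNA replication genes, the list most like the mitotic one, had larger changes. Of 40, 38 were called higher and 1 lower, 27 were at least 2-fold higher, and the median was 1.36, against 0.67 for the mitotic genes, a difference that was not tested. POLE2, a subunit of DNA polymerase epsilon, rose by 2.55 and FEN1, the flap nuclease, by 2.41, while the 1 lower gene, the licensing factor CDT1, changed by -0.22 and was not called without any 1 of the POGK libraries.

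**Figure D4:**
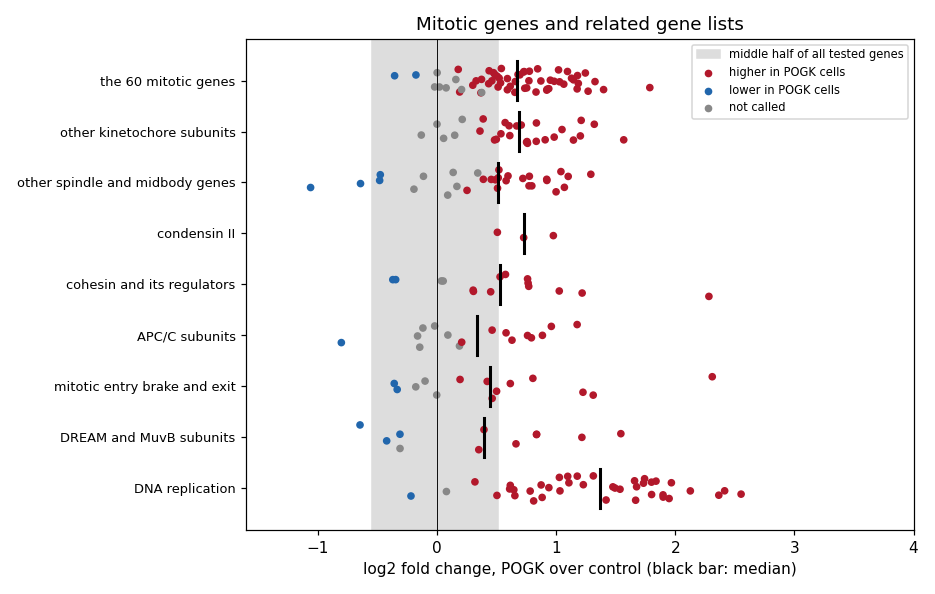
Log2 fold change of POGK over control cells for each gene of the mitotic set and of the related lists, coloured by call, with a black bar at each median and a grey band from the lower to the upper quartile of all tested genes, -0.54 to 0.51. The mitotic set has a median of 0.67 and the DNA replication genes one of 1.36.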

How the data were processed

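Ribosomal RNA was removed from total RNA, libraries were made with a KAPA kit, and reads were aligned to hg38, per the labels' protocols. The submitters' processing notes name Trimmomatic, STAR, SAMtools, deepTools and featureCounts, without versions. No source used here gives the annotation or the strand setting. The authors deposited raw read counts per gene for 6 libraries, 1 column for each per the file headers. It also held the authors' log2 fold change with its standard error and the authors' adjusted p-value, from a tool the sources used here do not name, quoted only as the authors' deposited table. A further 6 normalised columns were not used.

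Tests were run on the deposited counts with edgeR 4.0.16 in R 4.3.3 (TMM factors, the default low-count filter, robust quasi-likelihood fit, Benjamini-Hochberg adjustment over 15889 genes, calls below 0.05). CPM are mean ± SD over 3 libraries. Standard errors were derived from the F statistic. Exon lengths and positions came from GENCODE release 44 (hg38), and promoters from RefSeq. The chi-square per gene between libraries of 1 group was 1.36 to 2.62 for POGK and 22.5 to 49.7 for control libraries, so no pair agreed within sampling noise and all were kept, though repeats of 1 POGK sample cannot be told apart from separate samples. The scripts were tested on simulated data with 1 dispersion per gene for both groups, unlike the uneven spread of these libraries. There, 91% of 2-fold and 45% of 1.41-fold changes were recovered, and 6.85% of the calls were false. Related lists named the 2 largest positive and 2 largest negative changes among genes that were called and averaged 1 CPM or more. The mitotic genes and the lists were chosen with earlier results of these data known. The alternatives were DESeq2 1.42.0, limma-voom (limma 3.58.1), other size factors, other filters, a replicate block and each library left out. Removal of a trend in exon length or GC content per library was added after seeing the data.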

Additional observations from a re-analysis of the deposited data

How the results depend on the processing

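The main limits are the wide spread of the control libraries, the unknown source of replicates, and a strand setting that is not given. Under 15 alternative settings, 2 of them added after seeing the data, 46 of the 60 genes kept their direction and their call, 13 changed a call and 5 changed sign under at least 1, of which PRC1 changed sign without a change of call. The count called higher was 51, and it was 57 with library size alone, 52 with limma-voom, 50 with DESeq2 and 47 to 54 with 1 library left out. The share of all genes called higher was 32.7%, and 41.4%, 33.3%, 27.6% and 27.2% to 34.9% under these alternatives in turn. The count called lower was 2, and it was 1 with DESeq2-style size factors, no filter, DESeq2, the exon length trend removed or the GC trend removed, 0 with library size alone, and 1 to 2 with 1 library left out. Of all genes, 33.3% were called lower, 24.7% with library size alone, and 28.2% to 35.4% under the other alternatives. The number of genes under these shares differed, so the shares are not strictly alike. It was 15889 in the main fit, 18398 with DESeq2 or no filter, and 13605 with 1 CPM in 3 libraries. The median log2 fold change was 0.67, and 0.86 with library size alone, which moves all genes up, and 0.62 to 0.78 with 1 library left out.

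Deviations of same-numbered replicates of the groups had correlations of 0.087, 0.041 and 0.0028, and those of other pairs ran from -0.089 to 0.046. The POGK libraries differed little beyond sampling noise (chi-square per gene of 1.36 to 2.62). These correlations therefore cannot show whether the numbers pair the samples. With the replicate number as a block, 50 genes were called higher and 1 lower, beside 32.3% and 32.1% of all genes, and the median was 0.68.

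Genes near 0 changed sign, and the cause was not tested. UBE2C was at 0.17 with library size alone, 0.033 with the exon length trend removed, and -0.066 to 0.0061 with 1 library left out. PTTG1 was at 0.019 with library size alone. TOP2A was at -0.049 with the GC trend removed. PRC1 ran from -0.19 to 0.23 with 1 library left out. NCAPD2 was at -0.0026 with DESeq2-style size factors, -0.014 with a filter of 1 CPM in 3 libraries, -0.0086 with the exon length trend removed, and -0.0065 to 0.015 with 1 library left out. With library size alone, UBE2C, KIF18A, TPX2, TOP2A, NCAPD2 and CENPA were called higher. CENPA was called higher under 9 alternatives. In the related lists and those of mesenchymal, epithelial, receptor, immune and endothelial markers, 26 of 390 counts moved by more than 1.5 times. All were between 0 and 4 genes. Outside the marker lists, only counts called lower moved, for cohesin and its regulators, the regulators of entry and exit, and DNA replication. With library size alone, the count called lower was 1 for cohesin and its regulators, 0 for the regulators of entry and exit and 0 for DNA replication.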
